A study of Homo sapiens with 4 samples.

Results

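The subject here is the kinesin gene family, 40 genes that include CENPE, read as rows of a comparison of myeloma cells treated with the compound OSSL_325096 at 1 µM with cells that received DMSO. The members were chosen by name, and all 40 were found among the 57773 genes of the authors' deposited table. KMS12PE and KMS11 are established multiple myeloma lines, a cancer of antibody-secreting plasma cells, and each line gave 1 library per treatment, 4 in all. The OSSL_325096 group was therefore 1 library of KMS12PE and 1 of KMS11 exposed to the compound, and the DMSO group 1 library of each line exposed to the solvent alone, all grown in RPMI-1640 medium with serum. The compound is known here only by its code, and the sources used here do not give the time of exposure. The 2 libraries of a treatment differ in cell line, there is no replicate within a line, and expression per library was not analysed here.

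Kinesins are motor proteins that use ATP to move along microtubules or to take their ends apart. One set of them builds the mitotic spindle, moves chromosomes and completes cell division, and the genes of that set are transcribed mostly in G2 phase and mitosis. Others carry vesicles, organelles and protein complexes through the cell between divisions, and a further set works in cilia, structures that plasma cells are not known for. The members were sorted by these roles from textbook knowledge into 13 mitotic, 14 transport and 7 cilium and centriole genes, with 6 others. This sorting was done with earlier results of these data known.

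Each gene has 3 values in the authors' deposited table that are used below. The first, called the level of a gene, is an RPKM value (reads scaled by transcript length and library size), averaged over whichever treatment group had more of it. The second is the log2 fold change of OSSL_325096 over DMSO, positive where expression was higher with the compound according to the order of treatments in the table's title. The third is the p-value of the authors' own comparison. An implied standard error (SE) was worked out from the fold change and the p-value, under the assumption of a normal test. Genes with a level of at least 1 RPKM were kept, 11324 of the 23130 that had a fold change. The plasma cell markers SDC1, CD38, TNFRSF17, IRF4, PRDM1 and XBP1 had levels of 11.4 to 180 RPKM in the authors' deposited table, whereas 0 of 3 early B cell, 0 of 3 T cell and 0 of 3 myeloid markers reached 1 RPKM. EPCAM, an epithelial marker, was present at 15.8 RPKM in the authors' deposited table, and the stromal markers COL1A1 and COL1A2 were below 0.04 RPKM.

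No kinesin gene passed a test. In the authors' deposited table the false discovery rate was under 0.05 for 0 of the 26 kinesins kept, and the unadjusted p-value was under 0.05 for 0 of all 40, where it was for 0.0442% of the 11324 genes and 0.0389% of the 23130. Benjamini-Hochberg adjustment of the same p-values over the 11324 genes gave 0 kinesins as well. This was not particular to kinesins, since 0 genes of the 11324 passed the false discovery rate and 5 had an unadjusted p under 0.05. The smallest p of a kept kinesin was 0.370, for KIF20A. For 0 of the 26 kept kinesins was the log2 fold change larger than its implied SE, which held for 73 of the 11324 genes. The implied SEs of the 26 ran from 0.85 to 1.37 on the log2 scale. The 2 libraries of a treatment are of different lines. Unless the authors' test paired the lines, these SEs hold the difference between lines as well as any spread of the response. Every fold change below is therefore a size without a call, and a member is counted as higher or lower when it was at least 1.5-fold from 1. By that rule 4.95% of the 11324 genes were higher and 4.95% lower.

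The mitotic kinesins were, by role, the best expressed part of the family. All 13 had a level of at least 1 RPKM, with a median of 12.7 RPKM and a range of 2.74 to 56.8 RPKM, where the median of the 11324 genes was 6.76 RPKM. KIF22, a chromokinesin that pushes chromosome arms toward the spindle equator, was the most abundant at 56.8 RPKM in the authors' deposited table. KIF2C, which depolymerises microtubules at centromeres, followed at 49.5 RPKM there, and KIFC1, a minus-end motor that focuses spindle poles, at 33.3 RPKM. At the low end were KIF18A at 2.74 RPKM, CENPE at 4.28 RPKM and KIF20B at 4.33 RPKM in the authors' deposited table. Of the 14 transport kinesins 9 reached 1 RPKM, with a median over all 14 of 2.83 RPKM. Among the 7 cilium and centriole kinesins only KIF24 did, at 2.23 RPKM in the authors' deposited table, and the median of the 7 was 0.0698 RPKM. KIF21B, a motor that restrains microtubule growth and is known from immune cells and neurons, stood out among the remaining 6 at 40.5 RPKM in the authors' deposited table. The levels are means of 2 lines, so a gene used by 1 line alone cannot be told from one used moderately by both.

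**Figure D1:**
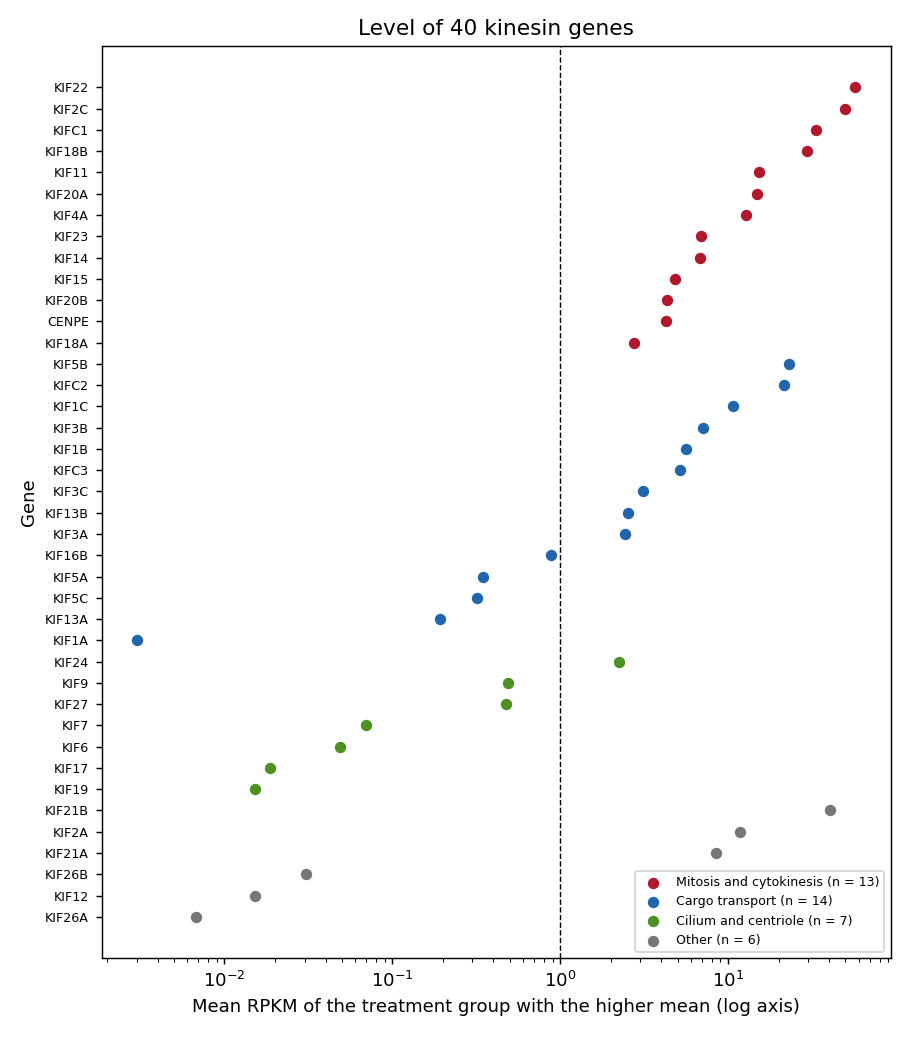
Level of each of the 40 kinesin genes (horizontal, RPKM averaged over the treatment with more of it, log axis), sorted by level within role groups (colours); the dashed line marks 1 RPKM. All 13 mitotic kinesins lie to the right of the line, while 6 of 7 cilium and centriole kinesins lie to its left.

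With OSSL_325096, the mitotic kinesins had mostly positive fold changes. The set was sorted with earlier results of these data known. It leaves out KIF2A, a depolymerase of spindle poles and neurons, which stood at -0.37 on the log2 scale. Of the 13, 12 had a log2 fold change above 0, where 51% of the 11324 genes did, and their median was 0.34, where that of the 11324 genes was 0.01. By size, 3 of 13 were at least 1.5-fold higher and 0 lower, where 4.95% of the 11324 genes were higher and 4.95% lower. All 3 differences were smaller than their implied SEs. In bulk RNA, a larger share of cells in mitosis cannot be told apart from more RNA of these genes per cell.

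KIF20A had the largest fold change of the kept kinesins. Its protein carries the chromosomal passenger complex to the central spindle in anaphase. The authors' deposited table gives KIF20A (ENSG00000112984, chromosome 5, 137514408 to 137523404, hg19) a log2 fold change of 0.85, or 1.80-fold, with an implied SE of 0.94, an unadjusted p of 0.370 and a level of 14.9 RPKM. The 95% interval from that SE had its upper end at 2.69 and its lower end below 0, so that a decrease is not outside it. Among the 11324 genes, 98.3% had a fold change no higher than that of KIF20A.

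KIF14 and KIF18B were the others past 1.5-fold. For KIF14, which works at the midbody with the bundling protein PRC1 and citron kinase, the authors' deposited table gives 0.73 (1.66-fold, implied SE 1.03) at 6.76 RPKM. Its gene lies on chromosome 1, 200520628 to 200589862, on the minus strand of hg19. KIF18B, which trims astral microtubules at their plus ends together with KIF2C, had 0.67 in the authors' deposited table (1.59-fold, implied SE 0.87) at 29.7 RPKM, and lies on chromosome 17, 43002077 to 43025082. Of the members past 1.5-fold, KIF18B was the closest to that threshold, and the next member, KIF4A at 1.40-fold, fell short of it.

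Between these and 0 lay a middle group. KIF4A, a chromokinesin that shortens the spindle midzone with PRC1, stood at 0.49 on the log2 scale in the authors' deposited table. The retrocopy KIF4B is nearly identical to KIF4A and was listed at 0.0205 RPKM beside 12.7 RPKM for KIF4A in the authors' deposited table, so few reads were assigned to the copy. KIF18A, which damps the movements of chromosomes at the spindle equator, had 0.45 in the authors' deposited table, with the widest implied SE of the mitotic set, 1.36. CENPE, the kinetochore motor that brings chromosomes to the equator, had 0.37, KIFC1 0.34 and the cytokinesis motor KIF20B 0.34 in the authors' deposited table. KIF23, which with RACGAP1 forms the centralspindlin complex, had 0.24 in the authors' deposited table.

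The other 4 mitotic kinesins lay within 0.15 of 0 on the log2 scale. The fold change of KIF2C was 0.10 (log2), that of KIF22 0.09 and that of KIF15 0.07, each from the authors' deposited table. KIF15 acts with KIF11 in pushing the spindle poles apart. KIF11 itself, the target of the spindle poison monastrol, was the single mitotic kinesin below 0, at -0.15 in the authors' deposited table (implied SE 0.93, 15.2 RPKM). The most abundant mitotic kinesins, KIF22 and KIF2C, were thus not those with the largest fold changes. Across the 26 kept kinesins the Spearman correlation between level and fold change was 0.13, as a description of genes measured in the same libraries.

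**Figure D2:**
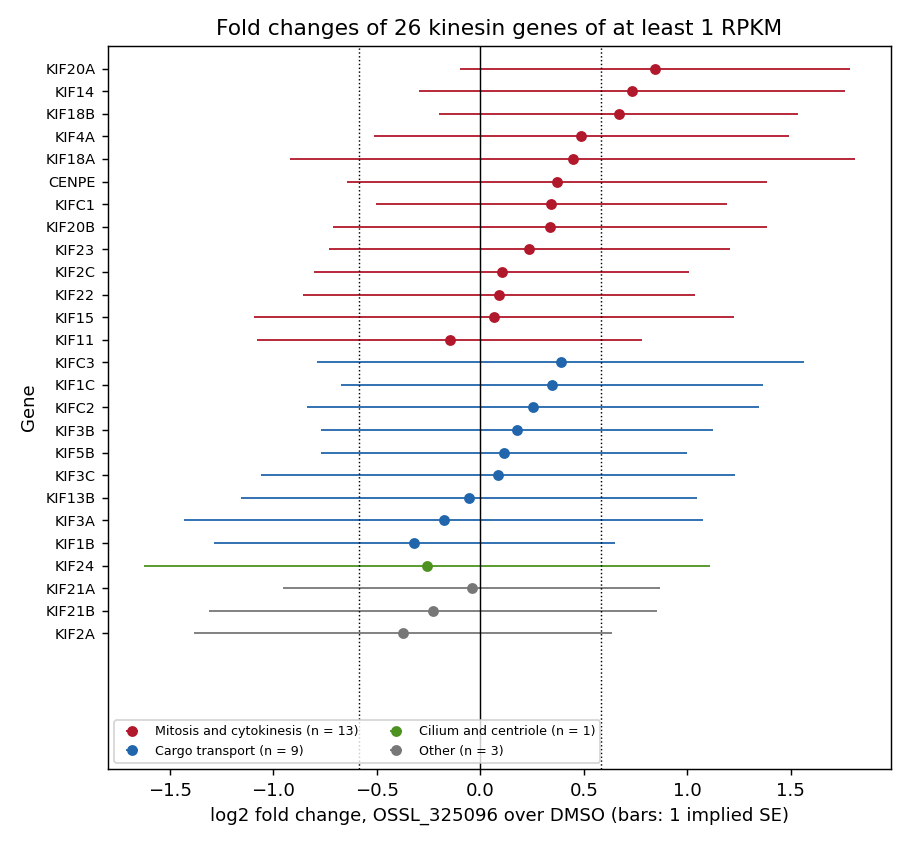
Fold change on the log2 scale (horizontal, OSSL_325096 over DMSO) of the 26 kinesin genes of at least 1 RPKM, sorted within role groups (colours); bars are 1 implied SE and dotted lines mark 1.5-fold. Every bar crosses 0, and only KIF20A, KIF14 and KIF18B lie beyond the upper dotted line.

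The promoters of most mitotic kinesins hold short elements known from genes of G2 phase and mitosis. A set defined by mitotic role can hold them whatever the compound does, so their share does not bear on the response. The elements were chosen after the files were seen. Many genes of G2 phase and mitosis carry a cell cycle genes homology region (CHR), a binding element of the DREAM and MYB-MuvB complexes, close to their start site, and upstream of it CCAAT boxes bound by NF-Y. The RefSeq promoter windows (GRCh38.p14), each from 250 bases before the start site to 50 after it, had entries for 32 of the 40 members. The windows are shown for the 3 mitotic kinesins with the largest fold changes, and for KIF1C, which had the largest absolute fold change of the transport kinesins of at least 1 RPKM with an entry. Capitals mark matches to CHR (TTTGAA or TTCGAA) and to CCAAT, each on either strand, and each sequence reads 5′ to 3′ on the strand of its gene.
KIF20A promoter, chr5:138178862-138179161 (+ strand): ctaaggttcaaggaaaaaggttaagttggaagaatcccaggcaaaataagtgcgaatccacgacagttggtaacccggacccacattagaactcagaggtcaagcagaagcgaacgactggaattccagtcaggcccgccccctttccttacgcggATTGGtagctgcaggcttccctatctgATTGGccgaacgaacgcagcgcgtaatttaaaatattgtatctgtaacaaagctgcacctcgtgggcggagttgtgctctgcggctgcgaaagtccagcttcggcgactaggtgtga
KIF14 promoter, chr1:200620702-200621001 (- strand): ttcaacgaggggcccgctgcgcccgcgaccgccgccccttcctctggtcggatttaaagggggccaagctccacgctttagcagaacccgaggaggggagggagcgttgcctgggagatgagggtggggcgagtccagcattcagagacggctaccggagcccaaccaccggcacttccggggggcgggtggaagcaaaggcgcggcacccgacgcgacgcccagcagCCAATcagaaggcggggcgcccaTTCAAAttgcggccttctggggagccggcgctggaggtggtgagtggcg
KIF18B promoter, chr17:44947724-44948023 (- strand): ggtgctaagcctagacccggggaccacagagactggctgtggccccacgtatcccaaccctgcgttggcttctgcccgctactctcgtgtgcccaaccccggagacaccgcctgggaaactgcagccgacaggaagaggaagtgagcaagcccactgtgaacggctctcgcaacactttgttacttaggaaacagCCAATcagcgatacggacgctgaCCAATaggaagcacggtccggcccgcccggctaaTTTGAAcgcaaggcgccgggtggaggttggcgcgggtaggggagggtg
KIF1C promoter, chr17:4997700-4997999 (+ strand): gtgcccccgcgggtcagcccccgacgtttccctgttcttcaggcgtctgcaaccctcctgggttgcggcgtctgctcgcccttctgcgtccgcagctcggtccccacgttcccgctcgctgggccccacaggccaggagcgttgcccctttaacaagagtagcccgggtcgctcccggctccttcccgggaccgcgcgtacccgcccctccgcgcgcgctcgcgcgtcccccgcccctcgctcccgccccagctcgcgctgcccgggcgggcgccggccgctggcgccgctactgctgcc
KIF14 and KIF18B have a CHR match 1 and 2 bases after the start site, with CCAAT boxes 22 to 55 bases before it. KIF20A has a pair of CCAAT boxes, read on the opposite strand, at 94 and 67 bases before the start site and no match to the CHR letters. KIF1C has neither element in its window.

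Over the mitotic set, 10 of 13 windows (76.9%) held a CHR match, compared with 2 of 19 windows (10.5%) of the other kinesins and 16.6% of all 27305 windows. CCAAT was found in 10 of 13 (76.9%), in 6 of 19 (31.6%) and in 35.7% respectively. Both elements were together in 9 of the 13 mitotic windows and in 6.58% of all windows. All windows include those of genes under 1 RPKM. Of the 8007 kept genes with a window, 379 had both elements and 476 a CHR match without CCAAT. The 11 CHR matches of the mitotic kinesins lay between 55 bases before and 30 bases after the start site, and the 14 CCAAT matches between 131 and 22 bases before it. The mitotic members with no CHR match were KIF20A, CENPE and KIF2C. Among the other kinesins, the exceptions with a CHR match were KIF24, with its match 1 base after the start site, and KIF5B, with its match 140 bases before it. Within the mitotic set, the median log2 fold change was 0.34 over the 10 members with a CHR match and 0.37 over the 3 without, and 0.34 over the 9 with both elements and 0.24 over the other 4. A heat shock element (GAANNTTC) was in 0 of 32 kinesin windows and in 6.87% of all windows, and an E2F element (TTTCCCGC, TTTCGCGC, TTTGCCGC or TTTGGCGC) in 1 of 32, that of KIF15, and in 3.33% of all windows.

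**Figure D3:**
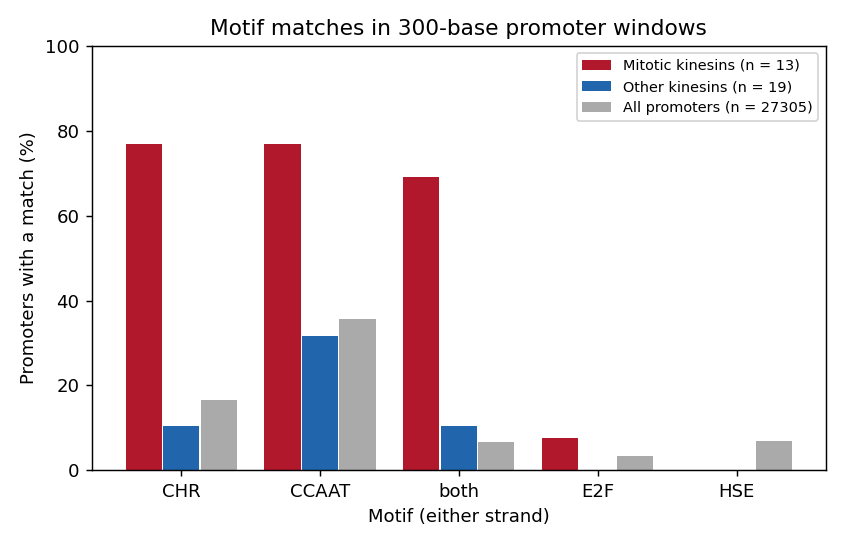
Share of promoter windows of 300 bases with at least 1 match to each element, for mitotic kinesins (red, 13 windows), other kinesins (blue, 19) and all windows (grey, 27305). CHR reaches 76.9% in mitotic kinesins, 10.5% in other kinesins and 16.6% overall.

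Transport kinesins were spread around 0. Of the 9 that were kept, 6 had a positive and 3 a negative log2 fold change, with a median of 0.11. By size, 0 of the 9 were 1.5-fold from 1 in either direction. Of the 11324 genes, 51% were above 0, 4.95% at least 1.5-fold higher and 4.95% lower. KIF5B, the ubiquitous heavy chain of conventional kinesin, was the most abundant at 23.2 RPKM and stood at 0.11 (log2) in the authors' deposited table. KIFC3, a minus-end motor of the Golgi and cell junctions, had 0.39 (5.15 RPKM), and KIF1C, a vesicle motor, 0.35 (10.8 RPKM) in the authors' deposited table. KIFC2, another minus-end motor, had 0.25 at 21.6 RPKM there. The subunits of heterotrimeric kinesin, KIF3B and KIF3A, are at 0.18 and -0.18 in the authors' deposited table, while KIF3C, an alternative partner of KIF3A, had 0.09. KIF13B had -0.05 in the authors' deposited table. The lowest of the transport set was KIF1B, a carrier of mitochondria and synaptic vesicle precursors, at -0.32 there (implied SE 0.97, 5.58 RPKM).

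The remaining kept members were all below 0 as deposited. KIF2A, a microtubule depolymerase of spindle poles and neurons, had the lowest fold change of the 26, at -0.37 in the authors' deposited table (1.30-fold lower, implied SE 1.01, 11.7 RPKM). Its relative KIF2C stood at 0.10, as given above. The growth-restraining motors KIF21B and KIF21A are at -0.23 and -0.04 in the authors' deposited table, while KIF24, which acts at centrioles against cilium formation, had -0.26.

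The 14 members below 1 RPKM give levels but hardly any information on the response. They are KIF16B, KIF5A, KIF5C, KIF13A and KIF1A of the transport set, KIF9, KIF27, KIF7, KIF6, KIF17 and KIF19 of the cilium set, and KIF26B, KIF12 and KIF26A. KIF16B, an early endosome motor, was just under the minimum at 0.883 RPKM and 0.09 (log2) in the authors' deposited table, and KIF24 was the lowest kept member at 2.23 RPKM. The neuronal heavy chains KIF5A and KIF5C were at 0.345 and 0.318 RPKM there, and KIF7, the Hedgehog regulator of the cilium tip, at 0.0698 RPKM. KIF1A, a neuronal motor, was listed at 0.00303 RPKM and 2.33 (log2) in the authors' deposited table. Another 1657 genes had the same fold change and p-value to within 0.001, each of them under 1 RPKM. KIF12 (-2.31 in the authors' deposited table) shared its pair of values with 1235 other genes, KIF17 (3.18) with 238 and KIF19 (-3.16) with 235. The largest fold changes of the family are thus values that recur across many genes near the limit of detection. Without the minimum, 5 of 40 members were at least 1.5-fold higher and 4 lower, where 19.8% and 18% of the 23130 genes were.

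The GC content of transcripts moves with the fold change in this comparison, so each member was also given with that trend removed. Across the 11104 kept genes with a GC content, the Spearman correlation between GC content and fold change was 0.47, and the median log2 fold change was -0.17 where GC content was in the lowest of 5 equal groups of genes and 0.23 where it was in the highest. The mitotic kinesins have GC-poor transcripts as a set, with a median of 42.2% where that of the 11324 genes was 50.2%, and 7 of the 13 are in the lowest GC group. After a regression on GC content, transcript length and level, the median of the mitotic set moved from 0.34 to 0.44, and that of all genes was 0.00. KIF14 had a residual of 0.87, KIF20A 0.84, KIF18A 0.70 and CENPE 0.61 on the log2 scale, so that 4 of 13 were at least 1.5-fold higher and 0 lower, where 3.43% and 3.96% of the genes were. KIF18B, whose transcripts are the most GC-rich of the set at 58.4%, moved from 0.67 to 0.44 and was no longer among them. KIF22 turned from 0.09 to -0.09, and 11 of the 13 were above 0, where 50.2% of the genes were. In the transport set the median moved from 0.11 to 0.05, and KIFC2, KIF3C, KIF13B and KIF3A changed sign, with residuals of -0.03, -0.02, 0.05 and 0.05. KIF21B had the lowest residual of the family, -0.50, and KIF21A turned to 0.10.

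**Figure D4:**
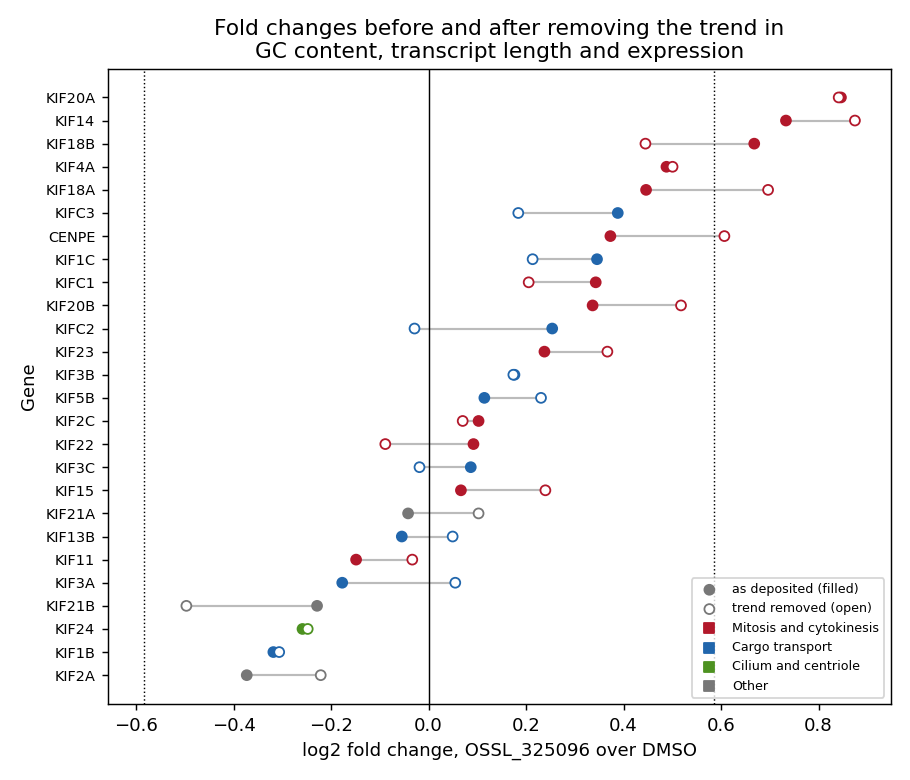
Log2 fold change of OSSL_325096 over DMSO of the 26 kept kinesins, as deposited (filled) and with the trend in GC content, transcript length and level removed (open), coloured by role and sorted by the deposited value; dotted lines mark 1.5-fold. KIF18A and CENPE move past the line with residuals of 0.70 and 0.61, and KIF18B moves inside it at 0.44.

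Genes that work with the kinesins were listed by role, and 0 of them passed the authors' false discovery rate or an unadjusted p under 0.05. Spindle partners of the mitotic motors were all kept, 21 of 21. Their median log2 fold change was 0.17, with 16 members above 0, 5 below 0 and 2 past 1.5-fold upward. The lowest value in this list was -0.23. Of the 11324 genes, 51% were above 0 and 4.95% were at least 1.5-fold higher. CEP55, which recruits the abscission machinery, had 0.63, SPAG5, a spindle and kinetochore protein, 0.62, the spindle pole protein ASPM 0.58 and HMMR 0.44 in the authors' deposited table. TPX2, which binds KIF11 and KIF15, had 0.40, PRC1, the partner of KIF4A and KIF14, 0.27 and RACGAP1, the partner of KIF23, 0.09 in the authors' deposited table.

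Adaptors of the transport kinesins were kept in 15 of 20 cases, 9 above and 6 below 0, with a median of 0.05 and 0 members 1.5-fold from 1. For this list and the next, the shares of the 11324 genes were 51% above 0, 4.95% at least 1.5-fold higher and 4.95% lower. The mitochondrial adaptor TRAK2 had 0.55, KIFAP3, the third subunit of heterotrimeric kinesin, -0.50 and the mitochondrial GTPase RHOT2 0.44 in the authors' deposited table. Cytoplasmic dynein and dynactin, which move toward microtubule minus ends, had a median of 0.04 over 23 kept of 24 genes, with 2 at least 1.5-fold higher and 0 lower. Those were the dynein regulator NDE1 at 0.81 and the light chain DYNLL1 at 0.76 in the authors' deposited table, followed by the cargo adaptor BICD2 at 0.58 and DYNLT3 at -0.56. The heavy chain DYNC1H1 was at -0.01 there. Of the kinesins outside the 40, STARD9 was at 0.12 with 1.40 RPKM in the authors' deposited table and KIF25 was listed at 0 RPKM.

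**Figure D5:**
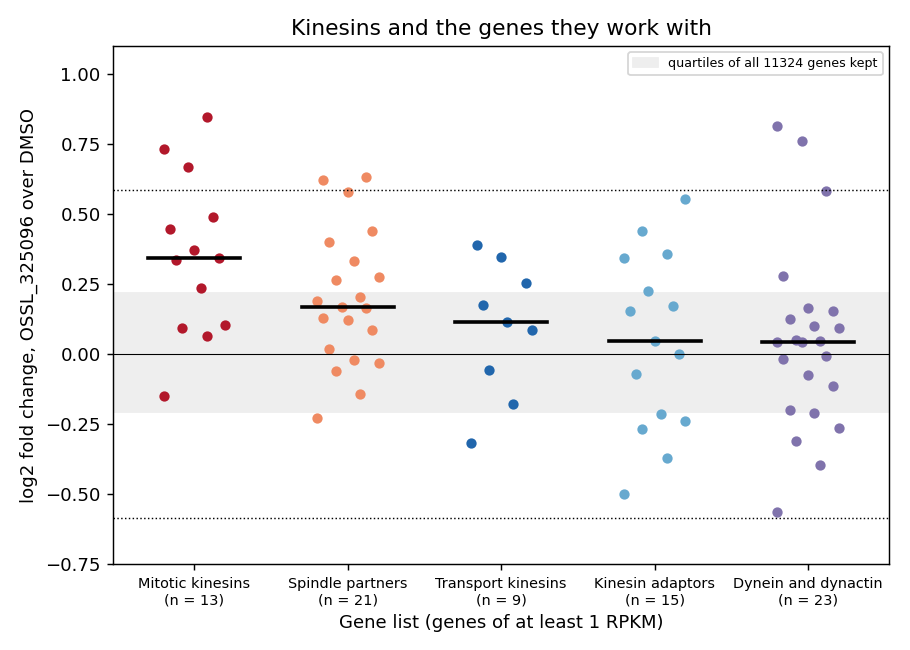
Log2 fold change of OSSL_325096 over DMSO of each gene of at least 1 RPKM in 5 lists (points), with list medians (black lines), the quartiles of all 11324 genes (grey band) and 1.5-fold (dotted lines). The medians, as deposited with no trend removed, are 0.34 for mitotic kinesins, 0.17 for spindle partners, 0.11 for transport kinesins, 0.05 for adaptors and 0.04 for dynein genes. The band is the spread of single genes.

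Reads from stretches that genes on opposite strands share cannot be separated without strand. The sources used here do not give the strand setting. For genes on the same strand, strand would not separate such reads. Overlaps below are of whole gene spans, introns included, so they do not show that reads were shared. Of the 26 kept kinesins, 20 overlap no other gene of at least 1 RPKM. KIF20A shares 66 bases with CDC23 and 268 bases with BRD8, both on the opposite strand, whose log2 fold changes were -0.22 and 0.06 in the authors' deposited table. KIF4A shares 486 bases with PDZD11 (-0.02 in the authors' deposited table). KIF15 shares 3802 bases with TMEM42, a gene on the same strand at 4.53 RPKM and -0.34 in the authors' deposited table. KIF2A lies across IPO11 (same strand, 0.19), DIMT1 (-0.14) and the row named CKS1B_2 (-0.71, 2.58 RPKM) in the authors' deposited table. KIF18A shares 61 bases with METTL15 (0.22) and KIF24 143 bases with UBAP1 (0.11), both on the opposite strand.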

How the data were processed

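RNA of 4 libraries was captured with oligo(dT) beads and sequenced, per the labels' protocols. Per the series' design text, mapping to hg19, RPKM values and the comparison were done by the authors in Biomedical Genomics Workbench 5; the sources used here do not state the counting rule, strand or test. The table holds the RPKM mean of the higher group, a log2 fold change and a signed fold score, as deposited by the authors, and 3 deposited p-value columns. It has 0 columns of single libraries, so the planned limma fit was replaced by the authors' deposited values, and depth per library is unknown. Group names come from the labels. The implied SE is the absolute log2 fold change over the normal quantile of p. It is exact only for a two-sided normal test.

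GC content and length were medians over GENCODE 44 transcripts (GRCh37), matched by gene identifier for 98.1% of kept genes and 26 of 26 kept kinesins. The trend was fitted with terms up to degree 3, explained 15.8% of the variance, and the script was tested on simulated data. Promoters were matched by symbol. The members, role groups and lists were chosen with earlier results of these data known; the elements searched were chosen after the files were seen. All members of at least 1 RPKM are named, and up to 4 genes of each partner list by absolute fold change, of which 1 is not reported here; TPX2, PRC1, RACGAP1, DYNC1H1 and KIF25 were added after their values were seen. Python 3.11.15, pandas 2.3.3, numpy 2.4.6, scipy 1.17.1 and matplotlib 3.10.9 were used. Nothing says how many cultures lie behind a library, so p-values do not measure any spread beyond these libraries. With 1 library per line and treatment and a test that is not stated, how the spread was estimated is unknown.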

Additional observations from a re-analysis of the deposited data

How the results depend on the processing

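Of 55 recomputed medians and counts of the mitotic, transport and whole kinesin sets, 43 stayed within 0.1 (medians) or 1.5 times (counts), 12 moved further and 0 medians changed sign. Several of the 43 are counts that are 0 throughout. With a threshold of 0.32 on the log2 scale, 8 mitotic, 2 transport and 10 of all kinesins were higher and 1 of all was lower, where 16.4% of the 11324 genes were higher and 15.2% lower. With a threshold of 2-fold, 0 mitotic and 0 of all kinesins were higher, where 0.989% of the genes were. With no minimum on RPKM, 1 transport kinesin was higher and 1 lower, and of all 40 kinesins 5 were higher and 4 lower, where 19.8% and 18% of the genes were. With a minimum of 5 RPKM, the transport median was 0.21 over 6 genes. After removal of the GC, length and level trend, the mitotic median was 0.44, and 6 of the 26 kept kinesins changed sign, 1 of them mitotic (KIF22, -0.09). Subtracting the median of all genes kept (0.01) changed the sign of 0 kept kinesins. Counting KIF2A as mitotic or leaving out KIF4A kept the mitotic median and the counts past 1.5-fold within the same limits. With KIF2A counted, the lowest mitotic member is KIF2A at -0.37, below KIF11. No paired analysis was possible because expression per library was not analysed here; for the same reason the cell line as a block and leaving out a library were not run. Depth behind each value is unknown, and the median implied SE of the kept kinesins, 1.01 on the log2 scale, limits what could be called.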

Other observations

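The pair of promoter elements common to most mitotic kinesins was also looked up in other genes. Of the 8007 kept genes with a RefSeq window, 379 had both a CHR and a CCAAT match, and 368 of these were not kinesins. Their median log2 fold change was 0.01, close to the 0.02 of all 8007. Of the 368, 31 (8.42%) were at least 1.5-fold higher and 14 (3.80%) lower, where 4.51% and 3.75% of the 8007 were. The trend in GC content, length and level was not removed from these values. Of the 476 genes with a CHR match alone, 3.15% were higher and 4.62% lower, and of the 2647 with CCAAT alone, 4.61% were higher and 4.50% lower. Spindle partners had a CHR match in 14 of 19 windows (73.7%), and dynein and dynactin genes in 0 of 21. Both elements were in 10 of the 19 spindle partner windows, so the 368 still hold mitotic genes described above. These are descriptions of 1 comparison, the search was chosen after the data were seen, and no test was run.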
